A study of Homo sapiens with 54 samples.

Results

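CSTA, BEX2, BEX4, FAM129A, PLEK2, TNFRSF9 and IL31RA are 7 of the 58870 genes measured by RNA sequencing in A549 cells, a human lung cancer cell line. They were chosen by measured values, since their mRNA was higher after 2.5 µM of the compound coded CP14 than after vehicle in these same libraries, and their rows were found by gene symbol. They are described here across all 18 groups of the series, for the order of their levels with dose and for how far other compounds gave the same change. Cells carried an empty vector (labelled E_V) or a USP18 expression vector (labelled USP18_O_E) and were harvested after 48 h with DMSO vehicle, CP2 (2 or 5 µM), CP14 (1, 2.5 or 5 µM) or CP18 (1, 2.5 or 5 µM), with 3 libraries in each of the 18 groups. USP18 is an isopeptidase that removes the ubiquitin-like protein ISG15 from its targets. The design text of the series names β-lapachone, and no label ties it to a code, so the compounds are given by code throughout. The sources used here do not say how many engineered populations carried each vector, so a difference between vectors cannot be told apart from a difference between such populations. Nothing in the labels says that replicates came from separate cultures, so p-values measure the spread between these libraries, which may be technical.

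The 7 genes belong to different families. CSTA encodes cystatin A, an inhibitor of cysteine proteases that is also a part of the cornified envelope of keratinocytes. BEX2 and BEX4 encode small proteins of the brain-expressed X-linked family, and their genes lie near each other on the X chromosome. FAM129A (NIBAN1 in GENCODE v44) encodes Niban, a protein known to be raised under cell stress, and PLEK2 encodes pleckstrin 2, which acts on the actin cytoskeleton and cell spreading. TNFRSF9 (4-1BB, CD137) and IL31RA are receptors: TNFRSF9 is a costimulatory receptor best known on activated T cells, which signals through TRAF adaptors, and IL31RA pairs with OSMR to bind interleukin 31 and signals through JAK and STAT proteins.

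In GENCODE v44 on GRCh38, CSTA (ENSG00000121552.4) lies on the plus strand at chr3:122325248-122341969. BEX4 (ENSG00000102409.10) lies on the plus strand at chrX:103215108-103217246 and BEX2 (ENSG00000133134.11) on the minus strand at chrX:103309346-103311007, with 92099 bases between them. FAM129A (ENSG00000135842.17) is at chr1:184790724-184974508 on the minus strand, PLEK2 (ENSG00000100558.9) at chr14:67386984-67412167 on the minus strand, TNFRSF9 (ENSG00000049249.8) at chr1:7915871-7943165 on the minus strand and IL31RA (ENSG00000164509.14) at chr5:55851357-55922854 on the plus strand. Values are those of whole genes, over all exons of each.

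Promoter windows of 250 bases upstream of the RefSeq start (GRCh38.p14) were at hand for 5 of the 7 genes, and those of CSTA and IL31RA were not analysed here. The windows of BEX2 and BEX4 are shown because these neighbours rose together under CP14 in both cell types, and that of TNFRSF9 because it held the other motif matches. The BEX2 window is chrX:103310991-103311240 on the minus strand, the BEX4 window (the second of its 2 RefSeq starts, 16 bases downstream of the first) is chrX:103214858-103215107 on the plus strand, and the TNFRSF9 window is chr1:7940840-7941089 on the minus strand, inside the GENCODE span of that gene. Capitals mark the E-box CACGTG in the BEX windows, and the overlapping AP-1 and antioxidant response element matches in that of TNFRSF9.
BEX2: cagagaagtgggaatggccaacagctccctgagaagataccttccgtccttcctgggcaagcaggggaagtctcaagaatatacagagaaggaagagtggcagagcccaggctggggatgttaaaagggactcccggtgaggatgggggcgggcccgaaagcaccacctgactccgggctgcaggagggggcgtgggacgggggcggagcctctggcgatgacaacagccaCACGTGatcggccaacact
BEX4: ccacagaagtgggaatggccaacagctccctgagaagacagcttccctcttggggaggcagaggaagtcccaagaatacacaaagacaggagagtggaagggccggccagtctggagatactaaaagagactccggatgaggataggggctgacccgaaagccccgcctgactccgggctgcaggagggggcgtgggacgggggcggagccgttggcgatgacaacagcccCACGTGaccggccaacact
TNFRSF9: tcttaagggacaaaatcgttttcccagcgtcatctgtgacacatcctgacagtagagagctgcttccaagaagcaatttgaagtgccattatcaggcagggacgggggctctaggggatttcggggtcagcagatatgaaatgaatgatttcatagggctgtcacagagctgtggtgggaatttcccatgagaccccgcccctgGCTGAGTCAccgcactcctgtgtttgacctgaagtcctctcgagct

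The printed BEX2 and BEX4 windows were 85.1% identical in a global alignment (74.5% with the window of the first BEX4 start), with a longest shared run of 45 bases, whereas BEX2 shared 50.2% to 53.6% of bases with FAM129A, PLEK2 and TNFRSF9. Both printed BEX windows held CACGTG from 19 to 14 bases before the start, whereas the window of the first BEX4 start ends inside these letters and holds no match. The motif was found in 6.34% of the 35116 RefSeq windows of this length. In the TNFRSF9 window, TGAGTCA (a match to the AP-1 motif TGANTCA, present in 6.57% of windows) lay 44 to 38 bases before the start and overlapped a match to TGACNNNGC on the other strand (10.9% of windows). TGACGTCA (a cAMP response element, 1.65% of windows) and TGATGNAAT (an ATF4 and C/EBP composite, 0.888%) had no match in the windows of the 5 genes. Neither did 1 exact form of the NF-kB site, GGGAC followed by TTTCC (0.179%, with no other form searched). Both strands were searched each time. The TNFRSF9 window holds gggaatttcc, a near form that was not searched, so NF-kB sites of other forms are not shown to be absent. A match is a description of letters and does not show that a factor bound there.

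All 54 libraries held 16673228 to 25609062 expected counts, with a median of 19701304, and the 7 genes passed the main filter on low counts in each comparison. USP18 itself was at 8.77 to 12.3 CPM (counts relative to the TMM-scaled library size) in the 27 libraries with the empty vector and at 947 to 2115 CPM in the 27 with the USP18 vector, so its level matched every label. The epithelial keratins KRT8 and KRT18 had medians of 3845 and 3599 CPM, while of the alveolar markers SFTPB and SFTPA1 had 0 counts in every library and SFTPC had at most 7. Because TNFRSF9 is best known on lymphocytes, 8 lymphoid markers were examined: CD3D, CD3E, CD2 and MS4A1 had 0 counts in all 54 libraries and PTPRC at most 7. The summed level of that list was 0.647 to 1.66 CPM with vehicle and 3.44 to 4.91 CPM with 5 µM CP14, nearly all of it CD8A, and its part in the results was not tested. Between the same groups the summed level was 7181 to 11584 CPM against 2995 to 4585 for epithelial markers (mostly KRT8 and KRT18). For alveolar markers it was 2.02 to 3.17 against 12.3 to 41.1, the latter mostly LAMP3. Myeloid markers (mostly CD68) summed to 35.3 to 42.2 against 65.8 to 102, and fibroblast markers to 4.78 to 13.9 against 4.03 to 6.95. The sums were 0.198 to 0.547 against 0 to 0.205 for endothelial markers and 62.3 to 82.7 against 81.0 to 101.2 for keratinocyte markers (mostly KRT10). KRT19, CD14 and TP63 ran against the sums of the epithelial, myeloid and keratinocyte lists. Their medians were 15.6, 2.39 and 1.93 CPM over all libraries and 26.8, 0.376 and 0.728 CPM with 5 µM CP14. The part of these lists was not tested either. KRT5, KRT14 and KRT1, keratins of the cells where CSTA is best known, never exceeded 3 counts. Fewer cells of a kind and less RNA per cell cannot be told apart in these bulk libraries.

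The values that chose the genes are given first, as a description without a test. With vehicle, CSTA was at 1.22, 2.52 and 1.55 CPM in the 3 libraries of empty-vector cells, and with 2.5 µM CP14 at 5.73, 4.91 and 4.88 CPM. In empty-vector cells this dose gave log2 fold changes of 1.57 for CSTA, 1.08 for BEX2, 1.00 for BEX4, 1.23 for FAM129A, 1.05 for PLEK2, 1.81 for TNFRSF9 and 1.36 for IL31RA. In USP18 cells the same comparison gave 2.85 for CSTA, 2.70 for BEX2, 1.33 for BEX4, 1.92 for FAM129A, 1.57 for PLEK2, 2.29 for TNFRSF9 and 2.08 for IL31RA. Replicate 1 of USP18 cells with 2.5 µM CP14 was the highest of its 3 libraries for all 7 genes, and without it BEX2 was at 2.41, FAM129A at 1.70 and PLEK2 at 1.41. In empty-vector cells CSTA came to 1.88 without replicate 2 of vehicle. Replicate 2 of empty-vector cells with 1 µM CP18 was the lowest of its 3 for all 7. Because vehicle and 2.5 µM CP14 chose the genes, all tests below use other libraries only.

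**Figure D1:**
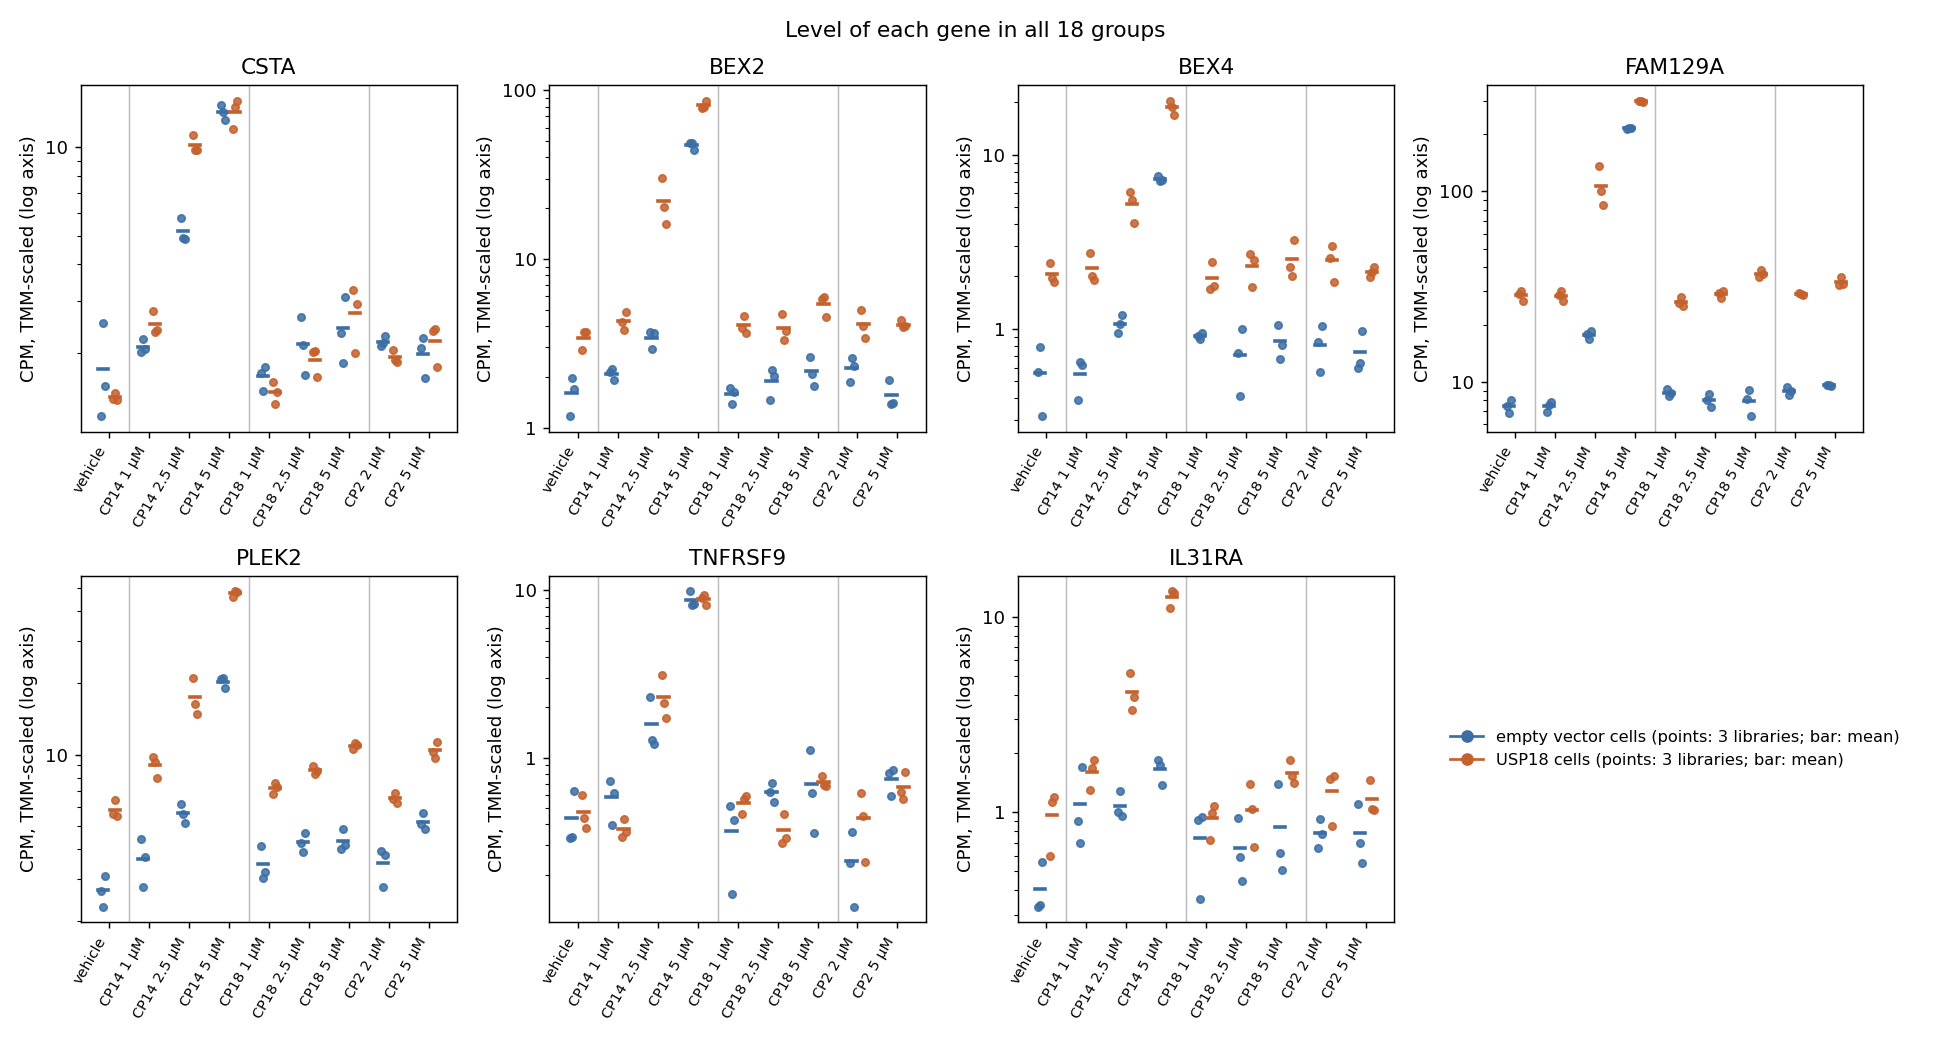
Level of each gene (CPM, TMM-scaled, logarithmic axis) in the 18 groups: points are the 3 libraries of a group, bars their mean, blue for empty-vector and orange for USP18 cells. For each of the 7 genes the group with the highest mean was USP18 cells with 5 µM CP14. In empty-vector cells, IL31RA alone had libraries at 5 µM CP14 that overlapped those at 1 µM.

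How did the 7 genes change between 1 and 5 µM CP14, in libraries that did not choose them? From 1 to 5 µM CP14, 6 of the 7 genes rose in empty-vector cells and all 7 rose in USP18 cells, by edgeR's quasi-likelihood test with a threshold of 0.05 on the adjusted p and 1 on the log2 fold change. Over all 15938 genes tested, 6.08% rose with the empty vector and 8.90% with the USP18 vector. The median log2 fold change of the 7 genes was 3.69 and 3.06 in these cells, and that of all genes tested 0.01 and 0.02.

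Of the 7 genes, FAM129A rose most from 1 to 5 µM CP14 in empty-vector cells. It was at 6.91, 7.52 and 7.84 CPM with 1 µM CP14, at 17.8, 16.8 and 18.5 with 2.5 µM, and at 213, 215 and 215 with 5 µM. In USP18 cells it was at 28.7, 29.8 and 26.6 CPM, then 137, 100 and 84.9, then 297, 300 and 294. Its level at 1 µM lay within the range of vehicle in both cell types (6.84 to 8.06 and 26.5 to 30.1 CPM), and the 3 doses did not overlap. Both are a description, since vehicle and 2.5 µM CP14 chose the genes. Its log2 fold change from 1 to 5 µM was 4.85 (SE 0.05, adjusted p = 3.1e-22, edgeR) in empty-vector cells and 3.38 (SE 0.04, adjusted p = 4.1e-21) in USP18 cells.

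BEX2 and BEX4 followed the same order. BEX2 was at 2.13, 2.23 and 1.91 CPM with 1 µM CP14 in empty-vector cells, at 3.68, 2.95 and 3.62 with 2.5 µM, and at 48.8, 49.0 and 44.2 with 5 µM. In USP18 cells it was at 4.22, 3.78 and 4.86 CPM, then 30.2, 20.3 and 16.1, then 78.1, 79.5 and 86.8. Its log2 fold change from 1 to 5 µM was 4.50 (SE 0.10, adjusted p = 4.4e-18, edgeR) and 4.26 (SE 0.08, adjusted p = 5.0e-19). The mean at 2.5 µM, given as a description, was 7.22% of that at 5 µM with the empty vector and 27.3% with the USP18 vector.

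BEX4 rested on fewer counts. It had 7, 13 and 12 expected counts with 1 µM CP14 in empty-vector cells (0.393, 0.643 and 0.619 CPM), 18, 25 and 24 with 2.5 µM, and 138, 142 and 130 with 5 µM (7.53, 7.10 and 7.17 CPM). In USP18 cells BEX4 rose from 2.73, 2.02 and 1.92 CPM with 1 µM to 20.4, 18.8 and 16.9 with 5 µM. The log2 fold changes of 3.69 (SE 0.19, adjusted p = 1.9e-12, edgeR) and 3.06 (SE 0.13, adjusted p = 8.6e-14) were past both thresholds. BEX1, the close relative of BEX2, had 0 counts in every library, so no reads were assigned to this near copy.

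CSTA rose in both cell types from 1 to 5 µM. With 1 µM CP14 it was at 2.02, 2.23 and 2.06 CPM in empty-vector cells and at 2.78, 2.36 and 2.40 in USP18 cells. With 5 µM it was at 14.0, 13.1 and 12.4 CPM and at 11.5, 13.7 and 14.4, so the cell types overlapped at the top dose. The log2 fold change was 2.64 (SE 0.13, adjusted p = 7.1e-13, edgeR) and 2.39 (SE 0.12, adjusted p = 1.2e-12). In USP18 cells 2.5 µM had given 11.0, 9.82 and 9.77 CPM, 77.3% of the mean at 5 µM, against 39.3% in empty-vector cells, values that are again a description.

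PLEK2 started higher in USP18 than in empty-vector cells and kept that gap. With 1 µM CP14 it was at 4.44, 2.77 and 3.72 CPM in empty-vector cells and at 9.77, 9.33 and 7.98 in USP18 cells. With 5 µM it reached 20.7, 20.9 and 19.0 CPM and 46.1, 48.4 and 48.4. For PLEK2 the step from 1 to 5 µM on the log2 scale was 2.48 (SE 0.12, adjusted p = 3.6e-13, edgeR) and 2.39 (SE 0.09, adjusted p = 1.2e-14).

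TNFRSF9 went from 13, 8 and 12 expected counts with 1 µM CP14 in empty-vector cells to 44, 30 and 24 with 2.5 µM and 181, 163 and 151 with 5 µM. In USP18 cells it went from 7, 10 and 6 counts to 66, 47 and 32 and then 184, 191 and 161. The log2 fold change from 1 to 5 µM was 3.91 (SE 0.19, adjusted p = 5.7e-13, edgeR) and 4.53 (SE 0.20, adjusted p = 9.6e-14). Too few 1 µM libraries reached the minimum of the filter, so TNFRSF9 entered this fit through the 5 µM libraries, where it was high. The low counts at 1 µM leave the size of both changes uncertain, and nothing beyond the counts is read from these calls. As a description, the 3 doses did not overlap in either cell type.

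IL31RA was the exception. In empty-vector cells it had 16, 14 and 33 expected counts with 1 µM CP14 (0.898, 0.693 and 1.70 CPM), 19, 30 and 19 with 2.5 µM and 34, 35 and 25 with 5 µM (1.85, 1.75 and 1.38 CPM). The lowest and highest doses overlapped, and the log2 fold change of 0.59 (SE 0.27) missed both thresholds (adjusted p = 0.066, edgeR, 95% interval 0.02 to 1.17). The value ran from 0.33 (adjusted p = 0.31) without replicate 2 at 1 µM to 1.07 (adjusted p = 0.0024) without replicate 3 at 1 µM, the 1 fit of 12 that called it. In USP18 cells, IL31RA went from 1.29, 1.68 and 1.86 CPM to 5.18, 3.35 and 3.89 and then 11.1, 13.5 and 13.3, without overlap, and rose by 2.97 (SE 0.20, adjusted p = 6.5e-11) from 1 to 5 µM.

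Step by step, all 3 libraries at 2.5 µM CP14 were above all 3 at 1 µM for 6 of the 7 genes in empty-vector cells (14.5% of the 16836 genes compared) and for all 7 in USP18 cells (18.9%). The libraries at 5 µM were above those at 2.5 µM for all 7 genes in both (31.2% and 30.6% of genes). At 1 µM only IL31RA was above every vehicle library in empty-vector cells (8.68% of genes), and CSTA, BEX2, PLEK2 and IL31RA were in USP18 cells (15.2%). The steps that include vehicle or 2.5 µM CP14 use libraries that chose the genes, so here and above they are a description only. With CP18, 1 gene stepped up without overlap from 1 to 2.5 µM in empty-vector cells (10.5% of genes) and 0 did from 2.5 to 5 µM (5.81%), while in USP18 cells 2 (6.35%) and 4 genes (7.94%) did, the 4 being FAM129A, PLEK2, TNFRSF9 and IL31RA. From 2 to 5 µM CP2, 3 genes (10.2%) and 2 genes (17.4%) did so in the respective cells.

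**Figure D2:**
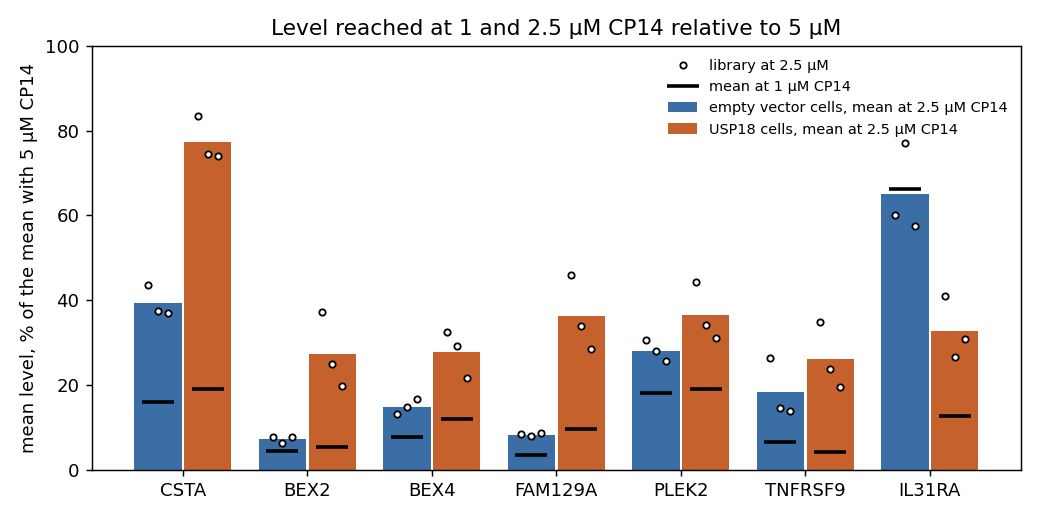
Mean level at 2.5 µM CP14 (bars, with the 3 libraries as open points) and at 1 µM (black marks), as a percentage of the mean at 5 µM in the same cells. Bars run from 7.22% (BEX2) to 64.9% (IL31RA) in empty-vector cells and from 26.0% (TNFRSF9) to 77.3% (CSTA) in USP18 cells, and IL31RA is the only gene whose bar is lower in USP18 cells.

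Which compounds gave the rise was compared at matched doses. At 5 µM, CP14 was above CP18 past both thresholds for 6 of 7 genes in empty-vector cells (5.83% of 15860 genes tested were called higher) and for all 7 in USP18 cells (9.09%). Against CP2 at 5 µM it was all 7 in both cell types, where 5.96% and 9.38% of 15882 genes were called higher. These comparisons share the CP14 libraries with each other and with the dose comparison above, so they are not independent of it. Changes against vehicle are a description, since vehicle chose the genes. With 5 µM CP18 they ran from 0.08 (FAM129A) to 0.99 (IL31RA) in empty-vector and from 0.26 (BEX4) to 0.94 (CSTA) in USP18 cells, on the log2 scale. With 5 µM CP2 they ran from -0.01 (BEX2) to 0.94 (IL31RA) and from 0.03 (BEX4) to 0.82 (PLEK2). With 5 µM CP14 they ran from 1.97 (IL31RA) to 4.87 (BEX2) and from 3.02 (PLEK2) to 4.56 (BEX2).

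FAM129A with 5 µM CP18 was at 8.14, 9.08 and 6.63 CPM in empty-vector cells and at 35.5, 38.6 and 36.7 in USP18 cells, and with 5 µM CP2 at 9.64, 9.67 and 9.54 and at 32.4, 35.4 and 32.8. CP14 was higher than CP18 by a log2 fold change of 4.75 (95% interval 4.60 to 4.91) in empty-vector cells and of 3.02 (2.89 to 3.14) in USP18 cells. BEX2 with CP18 was at 2.62, 2.07 and 1.77 CPM and at 5.76, 5.96 and 4.51, and CP14 was higher by 4.46 (4.21 to 4.70) and 3.92 (3.72 to 4.12). The adjusted p of these 4 differences ran up to 1.5e-16 (edgeR). For both genes every CP14 library lay above every CP18 library. The same held for 29.3% of 16836 genes in empty-vector cells and for 34.1% in USP18 cells.

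BEX4, TNFRSF9, CSTA and PLEK2 were also higher with CP14, in both cell types. CP14 against CP18 at 5 µM gave 3.09 and 2.91 for BEX4, 3.66 and 3.63 for TNFRSF9, 2.42 and 2.27 for CSTA and 2.21 and 2.14 for PLEK2, in empty-vector and USP18 cells. Standard errors lay between 0.08 and 0.23. Against CP2, the values were 3.32 and 3.12 for BEX4, 3.53 and 3.72 for TNFRSF9, 2.70 and 2.56 for CSTA and 1.95 and 2.18 for PLEK2.

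For IL31RA in empty-vector cells, CP18 at 5 µM gave 1.39, 0.617 and 0.506 CPM, and the highest of these overlapped CP14. The difference of 0.99 (SE 0.30, adjusted p = 0.0075, edgeR) fell just short of the threshold on size, and that against CP2, 1.03 (SE 0.26, adjusted p = 0.0023), lay just past it. Leaving out each library in turn moved the first value between 0.71 (adjusted p = 0.051, without replicate 3 of CP18) and 1.55 (without replicate 1 of CP18), and it was also past the threshold without replicate 3 of CP14 (1.10). The second fell to between 0.85 and 0.98 without replicate 2 or 3 of CP2 or replicate 1 or 2 of CP14, each alone. In USP18 cells CP14 exceeded CP18 by 2.98 (SE 0.21, adjusted p = 1.6e-10) and CP2 by 3.39 (SE 0.19, adjusted p = 9.8e-12).

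**Figure D3:**
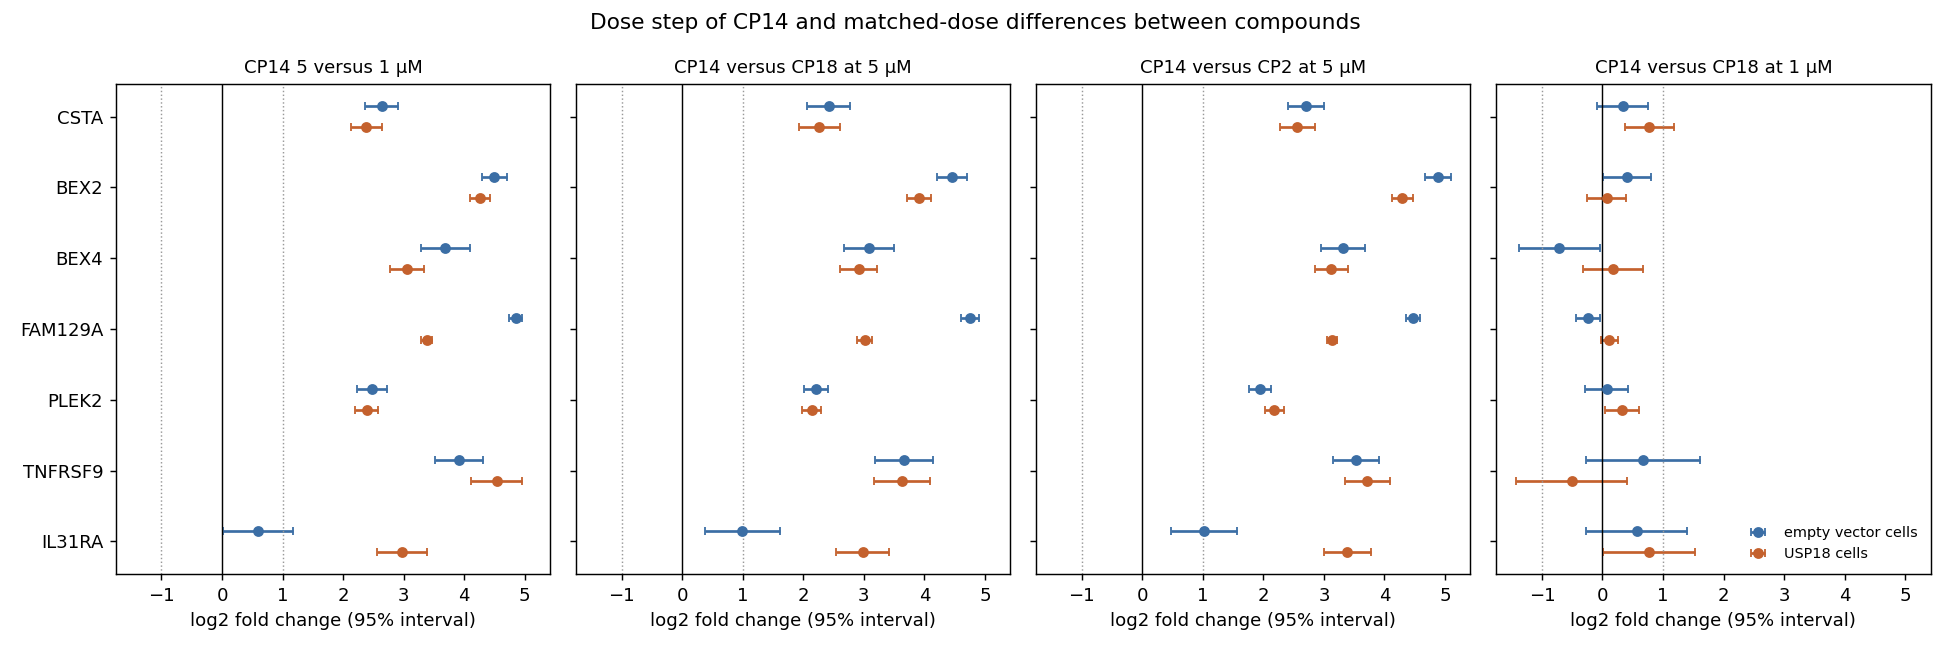
Log2 fold changes with 95% intervals (edgeR) for the dose step of CP14 and for CP14 against CP18 or CP2 at a matched dose, in empty-vector (blue) and USP18 (orange) cells, with dotted lines at the threshold of 1. In the 3 panels with 5 µM CP14 every interval lies above 0, whereas most intervals at 1 µM include it.

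At 1 µM, CP14 and CP18 were not shown to differ. No gene of 15720 was called in either cell type by edgeR (0% of genes tested), and 3 of the 7 genes in each had an unadjusted p under 0.05, as did 1061 and 1510 of all genes. DESeq2 called none of the 7, and gave an adjusted p to 4 of them in empty-vector cells and to none in USP18 cells. The intervals are wide for the genes with few counts, from -0.27 to 1.62 for TNFRSF9 in empty-vector cells, and narrow for FAM129A, from -0.43 to -0.04 in empty-vector cells and from -0.03 to 0.26 in USP18 cells. CSTA in USP18 cells had the smallest unadjusted p, with 2.78, 2.36 and 2.40 CPM for CP14 against 1.60, 1.34 and 1.47 for CP18 and a difference of 0.78 (95% interval 0.37 to 1.19, adjusted p = 0.20).

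CP18 and CP2 had dose steps of their own, which for CP2 span a narrower range of doses. From 1 to 5 µM CP18, none of the 7 genes was called in either cell type by edgeR (0.166% of 15620 genes were called in empty-vector and 0.0512% in USP18 cells), with 2 and 5 of the 7 at an unadjusted p under 0.05, as were 3422 and 1986 of all genes. DESeq2 gave an adjusted p to 3 of the 7 in each and called none of these. In USP18 cells FAM129A and PLEK2 passed the adjusted p but not the threshold on size: FAM129A went from 26.0, 27.8 and 25.1 CPM to 35.5, 38.6 and 36.7, a log2 fold change of 0.49 (SE 0.08, adjusted p = 0.0028), and PLEK2 from 6.85, 7.58 and 7.31 to 10.5, 11.2 and 11.0, one of 0.58 (SE 0.12, adjusted p = 0.016). The groups did not overlap for either gene, and the share of all genes without overlap in this step was not computed. In empty-vector cells the same step was -0.14 for FAM129A (95% interval -0.36 to 0.09) and 0.34 for PLEK2 (0.04 to 0.64, adjusted p = 0.17).

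PLEK2 also had a step with CP2. From 2 to 5 µM it went from 3.93, 2.78 and 3.79 CPM to 5.10, 5.66 and 4.86 in empty-vector cells (0.57, SE 0.14, adjusted p = 0.018, edgeR) and from 6.51, 6.93 and 6.24 to 10.2, 9.67 and 11.3 in USP18 cells (0.65, SE 0.12, adjusted p = 7.7e-04), both under the threshold on size. FAM129A in USP18 cells moved by 0.20 (adjusted p = 0.022). TNFRSF9 in empty-vector cells was the 1 gene of the 7 called, where 0.0826% of 15748 genes were called higher. It had 5, 7 and 3 expected counts with 2 µM and 19, 11 and 14 with 5 µM, a log2 fold change of 1.65 (SE 0.45, adjusted p = 0.039). This call was lost in 8 of the 12 fits that left out a library, with adjusted p up to 0.18 (without replicate 3 of empty-vector cells at 2 µM). It held without replicate 2 of either dose in empty-vector cells and without replicate 1 or 3 at 2 µM in USP18 cells, and was lost under a replicate block (0.062). DESeq2 gave it no adjusted p. In USP18 cells edgeR called none of the 7 genes (0.508% of genes were called), with 2 at an unadjusted p under 0.05, as were 4472 of all 15748 genes, and DESeq2 called none of the 5 to which it gave an adjusted p.

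BEX2, BEX4, FAM129A and PLEK2 were higher in USP18 than in empty-vector cells outside the high CP14 doses as well. With 1 µM CP14, these 4 were higher in USP18 than in empty-vector cells past both thresholds (4.39% of genes were called higher), by log2 fold changes of 1.01 for BEX2, 1.99 for BEX4, 1.93 for FAM129A and 1.33 for PLEK2. Adjusted p-values ran from 5.6e-15 to 1.0e-05 (edgeR). With 1 µM CP18 (4.17% of genes called higher) they were 1.36, 1.10, 1.58 and 1.07, and with 5 µM CP18 (4.23%) 1.32, 1.54, 2.21 and 1.31, past both thresholds each time. The call for BEX2 with 1 µM CP14 fell under the threshold on size, to 0.95 and 0.93, without the third replicate of empty-vector or of USP18 cells, and those with 1 µM CP18 did so for PLEK2 (0.98) without replicate 2 of empty-vector cells and for BEX4 (0.92) without replicate 2 of USP18 cells. CSTA and TNFRSF9 passed neither threshold between vectors in these 3 treatments, nor did IL31RA, which came to 1.01 (adjusted p = 0.0046) with 1 µM CP14 without the third replicate of empty-vector cells and to 0.28 (adjusted p = 0.43) without the second. With 5 µM CP18 it came to 1.49 (adjusted p = 0.0071) without replicate 1 of empty-vector cells and to 0.67 (adjusted p = 0.19) without replicate 3.

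At 5 µM CP14 the picture changed for some genes. BEX4 (1.36, SE 0.11), PLEK2 (1.23, SE 0.08) and IL31RA (2.92, SE 0.20) were called higher in USP18 cells, where 4.98% of genes were. BEX2 (0.78, adjusted p = 6.6e-10, edgeR) and FAM129A (0.47, adjusted p = 1.2e-09) passed the adjusted p alone. CSTA differed by 0.00 (95% interval -0.21 to 0.21) and TNFRSF9 by 0.02 (-0.24 to 0.28).

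**Figure D4:**
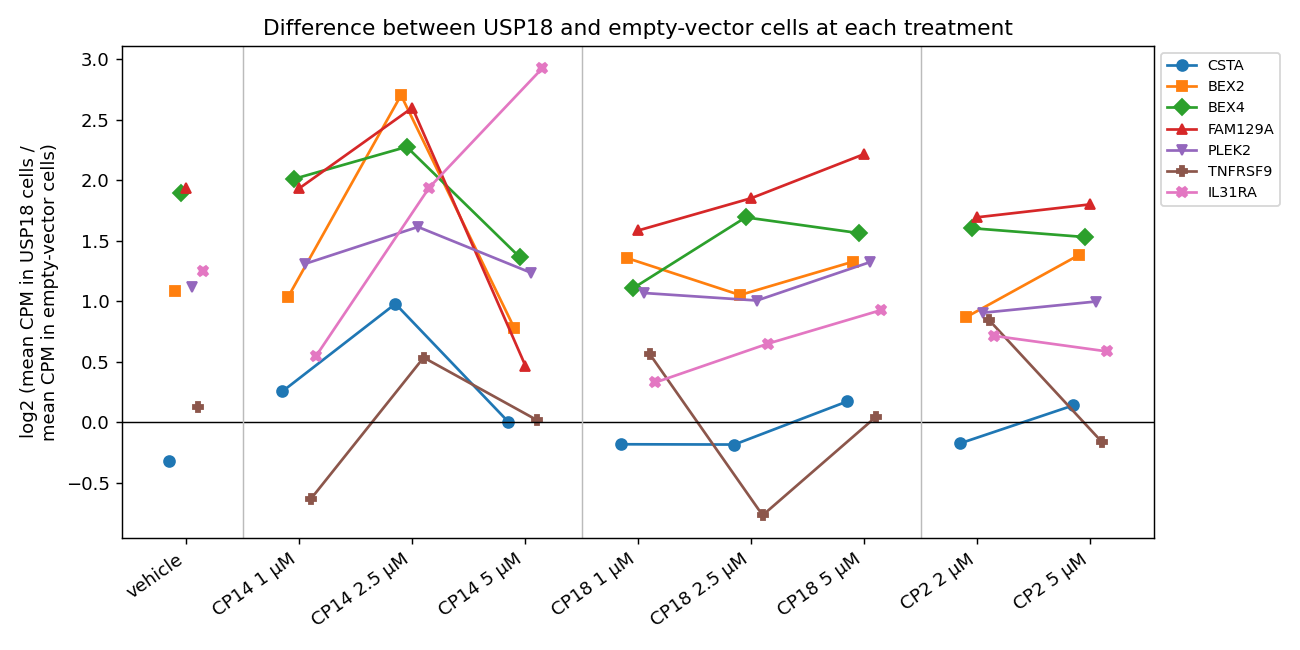
Log2 ratio of the mean CPM in USP18 cells to that in empty-vector cells, for each gene at each treatment, with lines joining the doses of a compound and 0 for equal levels. With CP14, the ratio of FAM129A goes from 1.93 at 1 µM through 2.60 at 2.5 µM to 0.47 at 5 µM, and that of IL31RA from 0.55 to 2.92, while with CP18 and CP2 that of FAM129A stays between 1.59 and 2.22.

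Whether the dose step of CP14 differed between vectors was tested as an interaction, which 29.8% of all genes passed, a share near that of the members (2 of 7). It differed for FAM129A, whose step was the smaller with the USP18 vector (-1.47 on the log2 scale, SE 0.08, adjusted p = 3.0e-10, edgeR), and for IL31RA, whose step was larger by 2.38 (SE 0.35, adjusted p = 4.1e-05). Mean FAM129A went from 7.42 to 214 CPM in empty-vector cells (28.8-fold as fitted) and from 28.4 to 297 CPM in USP18 cells (10.4-fold), so the cells that started higher also ended higher. The other intervals were -0.65 to 0.14 for CSTA, -0.57 to 0.10 for BEX2, -1.19 to -0.06 for BEX4 (adjusted p = 0.087), -0.42 to 0.23 for PLEK2 and -0.10 to 1.34 for TNFRSF9. The level of USP18 itself moved with dose: in USP18 cells it was at 1038 ± 21.7 CPM (SD, n = 3) with 1 µM CP14 and at 2047 ± 76.2 (SD, n = 3) with 5 µM, and its part in these differences was not tested.

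The difference between CP14 and CP18 at 5 µM depended on the vector for the same 2 genes and for BEX2, where 17.7% of all genes passed that interaction. It was -1.74 (SE 0.10, adjusted p = 1.1e-09, edgeR) for FAM129A, 1.99 (SE 0.38, adjusted p = 0.0012) for IL31RA and -0.54 (SE 0.18, adjusted p = 0.040) for BEX2. The value for BEX2 stayed between -0.43 and -0.72 when each library was left out in turn, but its adjusted p passed 0.05 in 8 of these 12 fits, rising to 0.13, and was 0.058 under a replicate block.

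Across all 18 groups, the same 3 groups led the order for each of the 7 genes. USP18 cells with 5 µM CP14 came first for each of them, and empty-vector cells with 5 µM CP14 came second for all but IL31RA, for which USP18 cells with 2.5 µM CP14 did. Of the 17 pairs of neighbouring groups in this order, the libraries overlapped in 9 for FAM129A, in 13 for BEX2 and BEX4, in 14 for CSTA and PLEK2, and in 15 for TNFRSF9 and IL31RA. Outside CP14, group means are given by vector as a description. FAM129A lay between 7.45 and 9.62 CPM in empty-vector cells and between 26.3 and 37.0 CPM in USP18 cells. For BEX2 these ranges were 1.57 to 2.26 and 3.43 to 5.41 CPM, for BEX4 0.556 to 0.913 and 1.96 to 2.51, for PLEK2 2.69 to 5.21 and 5.85 to 10.9 and for IL31RA 0.407 to 0.839 and 0.933 to 1.60, although its libraries overlapped between vectors in 4 of these 6 treatments. The ranges of CSTA and TNFRSF9 overlapped: outside CP14 their group means ran from 1.41 to 2.74 CPM and from 0.241 to 0.749 CPM over both vectors.

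Pearson correlations of group means (log2 CPM) between the 7 genes ran from 0.74 (TNFRSF9 with IL31RA, and CSTA with BEX4) to 0.98 (BEX4 with FAM129A) over the 18 groups. The groups share a cell line, and the high CP14 doses weigh on every value. Among 7921 genes with a range of over 1 log2 unit, those most like BEX2 were SNHG29 (0.99), IQCB1 (0.99) and C6orf48 (0.99), and those most like CSTA were SNHG5 (0.96), ALDH1L2 (0.96) and CLGN (0.96). BEX4 was closest to PRNP (0.99), TFPI2 (0.98) and EREG (0.98), FAM129A to TMEM158 (0.99), TFPI2 (0.99) and MARS (0.99), and PLEK2 to EREG (0.99), ARNTL2 (0.98) and SP140L (0.98). TNFRSF9 came closest to SARS (0.97), TRAF1 (0.97) and PABPC1L (0.97), and IL31RA to MMP25 (0.93), FAM241A (0.93) and CD163L1 (0.93). SNHG5, SNHG29 and C6orf48 are host genes of small nucleolar RNAs, MARS and SARS encode aminoacyl-tRNA synthetases, and EREG encodes the growth factor epiregulin.

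Relatives and partners of the 7 genes were followed from 1 to 5 µM CP14 by lists of gene families. Of the 8 BEX and TCEAL genes tested, the chosen BEX2 and BEX4 were the 2 that rose in either cell type. Over all genes, 6.08% rose in empty-vector and 8.90% in USP18 cells. The median of the list was 0.00 in empty-vector and 0.10 in USP18 cells. BEX3 stood at -0.17 and -0.72, the latter with an adjusted p of 3.0e-12 (edgeR) and under the threshold on size. Of the 3 Niban and pleckstrin genes tested, the chosen FAM129A and PLEK2 rose, beside the same shares of all genes, and FAM129B stood at -0.03 and 0.15. Since the genes that rose in these 2 lists were chosen for a rise under CP14, their calls are no result about the families.

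Of 12 cystatins listed, 4 were tested. The chosen CSTA was the 1 of them that rose, beside 6.08% and 8.90% of all genes. It was chosen for a rise under CP14, so this call is no result about the family. CST1, cystatin SN, fell by 1.86 and 1.70 on the log2 scale (adjusted p = 5.6e-08 and 5.1e-10, edgeR), where 1174 and 1407 of all 15938 genes fell. It went from 4.83 ± 0.664 to 1.34 ± 0.433 CPM (SD, n = 3) in empty-vector cells and from 18.8 ± 1.72 to 5.77 ± 0.433 (SD, n = 3) in USP18 cells. The expected counts of CST1 were not whole, since near copies of it share reads, so its values are uncertain. Among 10 cysteine cathepsins tested, proteases that cystatins bind, CTSV alone passed both thresholds and fell by 1.94 and 1.42 (adjusted p = 7.3e-11 and 3.5e-10), where 1174 and 1407 of all 15938 genes fell. Of 8 genes of the cornified envelope and squamous cells, PI3 was called higher in empty-vector cells (1.20, adjusted p = 0.049, edgeR), where 6.08% of all genes were. It had 3 to 10 counts against 12 to 15. EVPL fell by 1.16 in USP18 cells (adjusted p = 1.1e-11, edgeR), where 1407 of 15938 genes fell.

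In the TNF receptor superfamily, 20 genes were tested. With the chosen TNFRSF9 among them, 5 rose and 1 fell in empty-vector cells and 6 rose in USP18 cells, beside 6.08% and 8.90% of all genes that rose, with list medians of 0.29 and 0.43. Those that rose were TNFRSF9, TNFRSF10B, EDA2R and TNFRSF12A in both, TNFRSF1B in the former and NGFR and TNFRSF25 in the latter, and TNFRSF13C fell; TNFRSF12A, TNFRSF1B, TNFRSF25 and TNFRSF13C are named after their values were seen. TNFRSF10B, a death receptor for TRAIL, went from 243 ± 4.77 to 626 ± 11.4 CPM (SD, n = 3) in empty-vector cells (1.37, adjusted p = 8.9e-18, edgeR) and rose by 1.53 in USP18 cells, and EDA2R rose by 1.16 and 1.55. NGFR rose by 1.74 in USP18 cells (adjusted p = 1.8e-06), from 1.25 ± 0.206 to 4.20 ± 0.842 CPM (SD, n = 3). Of the 5 genes for the ligand and adaptors of 4-1BB, TRAF1 rose in both cell types, by 2.95 and 3.35 (adjusted p = 4.4e-12 and 1.8e-13). The ligand gene TNFSF9 stood at -0.41 (adjusted p = 0.0066) and -0.25 (adjusted p = 0.081), so receptor and ligand did not rise together.

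Of 16 genes tested in the interleukin 31 and oncostatin M receptor pathway, 2 rose in empty-vector cells (IL6 and STAT5A) and 4 in USP18 cells (IL31RA, IL6R, SOCS3 and STAT5B, the last pair named after their values were seen), beside 6.08% and 8.90% of all genes. The 4 include the chosen IL31RA. OSMR, the partner of IL31RA, was at 198 ± 0.821 and 271 ± 9.66 CPM (SD, n = 3) with 1 and 5 µM CP14 in empty-vector cells and at 177 ± 6.51 and 308 ± 10.7 (SD, n = 3) in USP18 cells. Its changes of 0.45 and 0.80 (adjusted p = 2.4e-09 and 2.3e-13, edgeR) passed the adjusted p and not the threshold on size. STAT5A, whose reads are in part shared with a near copy, rose by 1.33 in empty-vector cells (adjusted p = 3.9e-05) and IL6R by 1.12 in USP18 cells (adjusted p = 3.4e-08). IL6 was called in empty-vector cells (2.07, SE 0.72, adjusted p = 0.017, edgeR) on 0 to 8 counts with 1 µM and 13 to 16 with 5 µM. No 1 µM library there reached the minimum count of 10 set for the filter, so nothing is read from this call.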

How the data were processed

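The authors deposited RSEM expected counts per gene for 54 libraries. Their methods give trimming with Cutadapt 1.18, alignment with STAR 2.7.0f to hg38 and a GENCODE annotation, and removal of ribosomal RNA, whereas the labels describe poly(A) capture. The methods name a mouse annotation for RSEM, whose version is 1.3.1 in the submitters' processing notes, yet the identifiers are human. Of the deposited values 94.0% are whole numbers. Counting of near copies by RSEM can share reads between relatives.

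Expected counts were rounded and tested in R 4.3.3 with edgeR 4.0.16 (TMM, filterByExpr with minimum count 10 and total 15, quasi-likelihood test, Benjamini-Hochberg adjustment over all genes tested). Each fit held 12 libraries (a pair of treatments in both cell types) and, for the tests, no vehicle and no 2.5 µM CP14 library. Calls needed an adjusted p under 0.05 and an absolute log2 fold change over 1, interactions the adjusted p alone. Likeness used log2 CPM with a prior count of 2. The members and gene lists were chosen with earlier results of these data known. Named beside the 7 genes were, per gene, the 3 most alike and, per list, at most 4 called genes with the largest change, while OSMR, TNFSF9, BEX1, BEX3 and FAM129B were named as relatives or partners after their values were seen. Markers were KRT8, KRT18, KRT19, EPCAM and CDH1 for the carcinoma, with lists for alveolar, lymphoid, myeloid, fibroblast, endothelial and keratinocyte cells. In simulated counts for the CP14 dose step (15593 genes, log2 changes of 2), 92% of changes in either cell type and 78% of interactions were recovered, with 5, 2 and 8 false calls. Replicates differed by more than counting noise in all 54 pairs. Alignments used Biopython 1.88. Alternatives were RLE scaling, other filters, a replicate block, DESeq2 1.42.0, other sets of libraries and leaving out each library. Intervals cover the spread between libraries only.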

Additional observations from a re-analysis of the deposited data

Results flagged for a closer look

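For 3 of the 7 genes the response to CP14 differed between USP18 and empty-vector cells by the test of the difference itself. Over all genes, 29.8% passed that test for the dose step, where 2 of the 7 did, and 17.7% passed it for CP14 against CP18, where 3 of the 7 did, so the first count is near the background. The step from 1 to 5 µM differed by -1.47 on the log2 scale for FAM129A and by 2.38 for IL31RA. The difference between CP14 and CP18 at 5 µM differed by -1.74 for FAM129A, by 1.99 for IL31RA and by -0.54 for BEX2. At 5 µM CP14, FAM129A was at 214 ± 1.06 and 297 ± 3.03 CPM in empty-vector and USP18 cells, and IL31RA at 1.66 ± 0.250 and 12.6 ± 1.31 (SD, n = 3 each). FAM129A and IL31RA kept their calls in every alternative and every fit without a library, and BEX2 lost its call in 8 of the 12 fits without a library (adjusted p up to 0.13, edgeR) and in those named in the next section. USP18 was 1.97-fold higher with 5 than with 1 µM CP14 in USP18 cells, and its part in these results was not tested.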

How the results depend on the processing

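Of 932 fits of single genes under other settings with all libraries, 928 kept the direction and the side of the threshold, 4 lost a call and 0 reversed. The 4 were TNFRSF9 from 2 to 5 µM CP2 in empty-vector cells, under a replicate block (1.64, adjusted p = 0.062, edgeR) and with only the 2 groups fitted (1.65, 0.075), and BEX2 in the CP14 against CP18 interaction, under the block (-0.53, 0.058) and with all 54 libraries (-0.55, 0.087). For CP2 the count of the 7 genes called thus fell from 1 to 0, as it did with at least 10 counts in every library (TNFRSF9 not tested) and with DESeq2 (adjusted p not given). That filter also left out TNFRSF9 and BEX4, called genes of the CP14 dose step, where 4 and 5 were called in place of 6 and 7. Without single replicates it ran from 0 to 1, and the other counts moved by at most 1.

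Replicate numbers did not pair the libraries (0 of 18 same-number correlations over 0.1 in each of 6 comparisons, with values from -0.11 to 0.08 over all 6), and the replicate block moved the count of all genes called from 1 to 5 µM CP14 from 2143 to 2119 and from 2825 to 2810.

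These single-gene values passed no threshold in the main test and changed sign when a replicate was left out. PLEK2 ran from -0.25 to 0.078 in the CP14 dose interaction and from -0.091 to 0.24 for CP14 against CP18 at 1 µM in empty-vector cells, where BEX2 in USP18 cells ran from -0.021 to 0.18. In the interaction of CP14 against CP18 at 5 µM, TNFRSF9 ran from -0.56 to 0.28 and BEX4 from -0.38 to 0.042. Between vectors at 5 µM CP14, TNFRSF9 ran from -0.032 to 0.11 and CSTA from -0.061 to 0.092, and TNFRSF9 at 5 µM CP18 from -0.27 to 0.56 and IL31RA at 1 µM CP18 from -0.0027 to 0.57. For the CP18 dose step in empty-vector cells, IL31RA ran from -0.39 to 0.44 and BEX4 from -0.29 to 0.034. For CP2, IL31RA ran from -0.33 to 0.22 and BEX4 from -0.42 to 0.023 in empty-vector cells, and BEX2 from -0.14 to 0.14 and IL31RA from -0.36 to 0.013 in USP18 cells.

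Counts over all genes moved by over 1.5 times with at least 10 counts in every library (in empty-vector and USP18 cells from 2143 to 1292 and 2825 to 1818 for the CP14 dose step, from 1941 to 1206 and 2692 to 1749 against CP18 and from 1928 to 1194 and 2774 to 1793 against CP2 at 5 µM, and between vectors from 1545 to 774 and 1593 to 818 with 5 and 1 µM CP14 and from 1534 to 832 and 1539 to 850 with 5 and 1 µM CP18), with all 54 libraries for the CP14 against CP18 interaction (2808 to 4250), and for the small counts of CP18 and CP2 (in the same cell order, 26 to between 2 and 95 and 8 to between 2 and 90 with CP18, 18 to between 0 and 88 and 80 to between 27 and 206 with CP2, and 0 to 59 and 62 without a filter for CP14 against CP18 at 1 µM). Depth limits TNFRSF9, IL31RA and BEX4 most, each under 20 counts in several libraries. In rank correlations, 1 of the 21 most alike genes stayed among the top 3, PABPC1L for TNFRSF9. The cause of these shifts was not tested.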
